A study of Mus musculus with 2 samples.

Results

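Of 1558 annotated mouse genes with a transcript of type snoRNA or scaRNA, 86 held at least 10 expected counts summed over 2 hearts, and these 86 are the members described below. They were chosen by annotated type and by that summed count, so their number and their levels are a description and carry no test. The members comprised 5 C/D genes (symbol Snord), 21 H/ACA genes (Snora), 10 entries of U3 (Rnu3a and Rnu3b), 14 scaRNA genes and 36 genes whose symbol names no class. The hearts came from male B6CASTF1/J mice, the hybrid of C57BL/6J and CAST/EiJ, at 10 days of age, with no treatment named, and formed 1 group of 2 libraries (replicate 1 and replicate 2). Each library was total RNA-seq from 300 ng of heart RNA after reduction of ribosomal RNA, with strand kept and ERCC spike-in RNAs added. The labels count the hearts as biological replicates from separately numbered males but link both to 1 donor record, and the spread given here is that between these 2 libraries.

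Small nucleolar RNAs (snoRNAs) are short stable RNAs that work with proteins as guides for the chemical modification of other RNAs. C/D snoRNAs carry a C box and a D box and guide 2′-O-methylation by fibrillarin, whereas H/ACA snoRNAs end in an ACA box and guide pseudouridylation by dyskerin. A few, U3 among them, are needed for the cleavage and folding of the ribosomal RNA precursor. Small Cajal body RNAs (scaRNAs) are built from the same boxes, gather in the Cajal body and guide modification of the spliceosomal snRNAs. Most mammalian snoRNAs are cut from introns of host genes that encode proteins or noncoding RNAs, while U3 genes have promoters of their own.

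The sequences of the members on which the comparisons turn are printed here 5′ to 3′ as DNA from the GENCODE M21 transcripts, with positions in mm10. Capitals mark TGATGA (C box) within the first 20 bases, CTGA (D box) within the last 20 bases and ACA placed 3 bases before the 3′ end (ACA box), all read on the RNA strand alone. In U3 and Snord118 the first TGATGA of the whole RNA is marked, since it lies inside the molecule.

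The first pair shows U3, the class that differed most between the hearts, with Rnu3b1 at chr11:87443237-87443452 and Rnu3a at chr10:40258467-40258680, both on the plus strand. The 4 Rnu3b copies were identical over 216 bases, and Rnu3a shared 85.4% of aligned positions with Rnu3b1. In both sequences TGATGA began in the 3′ part of the RNA, at base 157 of Rnu3b1 and base 156 of Rnu3a.
Rnu3b1: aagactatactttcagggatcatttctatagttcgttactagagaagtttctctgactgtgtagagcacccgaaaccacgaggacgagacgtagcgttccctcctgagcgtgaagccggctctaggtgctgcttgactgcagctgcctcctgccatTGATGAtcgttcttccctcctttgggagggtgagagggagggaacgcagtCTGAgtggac
Rnu3a: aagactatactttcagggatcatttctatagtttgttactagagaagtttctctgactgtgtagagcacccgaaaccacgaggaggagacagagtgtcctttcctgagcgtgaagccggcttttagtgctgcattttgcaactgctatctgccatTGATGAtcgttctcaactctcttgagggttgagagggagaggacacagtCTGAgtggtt

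The next set shows the C/D members Snord17 (chr2:144265979-144266216, minus strand), Snord15b (chr7:99479563-99479707, minus strand) and Snord118 (chr11:69073427-69073561, plus strand), and the unclassed member Gm22486 (chr6:71882557-71882693, minus strand). RefSeq, on the same build, places a gene named Snord94 at exactly the coordinates of Gm22486, and Gm22486 held both boxes at its ends.
Snord17: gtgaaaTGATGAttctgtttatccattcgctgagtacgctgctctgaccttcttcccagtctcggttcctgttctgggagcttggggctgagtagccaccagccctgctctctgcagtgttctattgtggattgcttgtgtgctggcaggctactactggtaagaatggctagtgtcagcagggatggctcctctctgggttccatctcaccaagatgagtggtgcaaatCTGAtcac
Snord15b: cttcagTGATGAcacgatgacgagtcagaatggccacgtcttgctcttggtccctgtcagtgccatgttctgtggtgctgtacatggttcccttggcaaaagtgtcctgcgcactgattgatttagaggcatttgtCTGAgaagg
Snord118: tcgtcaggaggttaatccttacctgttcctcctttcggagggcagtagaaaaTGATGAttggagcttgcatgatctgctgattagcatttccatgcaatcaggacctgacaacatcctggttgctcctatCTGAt
Gm22486: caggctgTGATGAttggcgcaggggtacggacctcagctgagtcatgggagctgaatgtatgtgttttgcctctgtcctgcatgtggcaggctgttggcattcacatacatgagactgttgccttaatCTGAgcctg

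Members with an ACA end or of H/ACA class are shown as Snora73b (chr4:132352322-132352526, minus strand), Snora23 (chr7:110046364-110046547, plus strand), Gm26448 (chr9:120129351-120129553, plus strand) and Gm22988 (chr11:69669635-69669778, minus strand). Gm26448 shared 88.3% of aligned positions with Snora73a, a near copy of Snora73b.
Snora73b: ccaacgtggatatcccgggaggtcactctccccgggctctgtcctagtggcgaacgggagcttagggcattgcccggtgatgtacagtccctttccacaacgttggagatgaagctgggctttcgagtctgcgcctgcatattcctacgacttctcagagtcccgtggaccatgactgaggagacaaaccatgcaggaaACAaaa
Gm26448: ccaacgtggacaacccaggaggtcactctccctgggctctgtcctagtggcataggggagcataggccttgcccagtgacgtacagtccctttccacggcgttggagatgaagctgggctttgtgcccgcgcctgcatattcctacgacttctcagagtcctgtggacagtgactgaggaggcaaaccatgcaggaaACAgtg
Snora23: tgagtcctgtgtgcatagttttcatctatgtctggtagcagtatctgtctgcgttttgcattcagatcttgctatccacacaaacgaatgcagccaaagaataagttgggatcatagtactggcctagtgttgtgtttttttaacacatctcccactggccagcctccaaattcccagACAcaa
Gm22988: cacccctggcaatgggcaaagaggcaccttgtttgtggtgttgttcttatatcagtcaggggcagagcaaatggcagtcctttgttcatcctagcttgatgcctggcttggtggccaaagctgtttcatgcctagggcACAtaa

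Gm24119 (chr10:91118291-91118536, minus strand) and Gm26447 (chr16:23111301-23111429, plus strand) were the unclassed members with the highest count and the highest TPM among those with neither box pattern.
Gm24119: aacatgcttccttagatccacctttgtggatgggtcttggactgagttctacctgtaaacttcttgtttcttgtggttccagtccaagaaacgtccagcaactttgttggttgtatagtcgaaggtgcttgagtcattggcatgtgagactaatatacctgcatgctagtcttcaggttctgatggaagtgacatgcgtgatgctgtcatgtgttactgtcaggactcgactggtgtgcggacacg
Gm26447: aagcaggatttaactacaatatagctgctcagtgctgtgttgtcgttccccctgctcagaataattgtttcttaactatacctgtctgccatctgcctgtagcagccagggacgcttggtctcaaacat

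The scaRNAs shown are Scarna6 (chr1:87784556-87784820, plus strand) and Gm25395 (chr1:87776938-87777209, plus strand), which lie in the same host gene and both open and close with the C and D boxes, and Scarna13 (chr12:105031075-105031349, minus strand), which ends in the ACA box.
Scarna6: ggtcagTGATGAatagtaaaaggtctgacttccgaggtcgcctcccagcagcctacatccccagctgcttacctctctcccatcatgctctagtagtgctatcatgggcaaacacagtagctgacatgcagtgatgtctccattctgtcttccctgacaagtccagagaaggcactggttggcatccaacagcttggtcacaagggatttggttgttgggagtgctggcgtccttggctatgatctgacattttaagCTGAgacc
Gm25395: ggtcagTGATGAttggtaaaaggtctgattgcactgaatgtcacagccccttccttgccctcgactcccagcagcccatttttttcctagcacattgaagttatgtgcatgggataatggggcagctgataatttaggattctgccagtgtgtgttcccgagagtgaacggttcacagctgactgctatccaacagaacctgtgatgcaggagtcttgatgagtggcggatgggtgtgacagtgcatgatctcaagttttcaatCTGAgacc
Scarna13: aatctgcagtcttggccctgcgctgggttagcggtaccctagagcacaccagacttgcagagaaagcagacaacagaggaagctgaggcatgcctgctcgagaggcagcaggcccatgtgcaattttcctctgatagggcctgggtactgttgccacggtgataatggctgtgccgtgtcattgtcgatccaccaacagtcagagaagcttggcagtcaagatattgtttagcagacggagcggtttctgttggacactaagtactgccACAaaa

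The whole tables held 38627658 expected counts of annotated genes in replicate 1 and 37694435 in replicate 2. Expected counts are reads per gene, in which a read that fits several genes is divided among them, and TPM is the same quantity per effective length, scaled to a constant sum. Heart muscle markers were abundant, with Myh6 at 8595 and 8333 TPM and Tnnt2 at 3110 and 3041 TPM in replicates 1 and 2, while Myh4 of fast skeletal muscle was at 0. Markers of the atria and of fat differed between the hearts. The 4 atrial genes Nppa, Sln, Myl7 and Myl4 summed to 1460 TPM in replicate 1 and 269 TPM in replicate 2, and the 6 brown fat and adipocyte genes Ucp1, Cidea, Adipoq, Plin1, Cidec and Elovl3 to 387 and 30.8 TPM. All 10 of these genes were higher in replicate 1.

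Whether a snoRNA could be seen at all depended on its length. The effective length, the number of positions at which a read can start, was the length minus 99 in all 1096 genes of at least 100 bases, as a read of 100 bases would give, and it was 0 for the 462 shorter genes, which held no counts. Of the C/D genes, 87 of 98 were shorter than 100 bases, and 5 of the other 11 were members. All 42 H/ACA genes reached 100 bases, and 21 of them were members. The 10 U3 entries were all members, as were 14 of the 48 scaRNA genes that reached 100 bases. Of the 985 unclassed genes that did, 36 were members, 890 had no counts in either heart and 59 had some counts but too few. The absence of a C/D gene from the members is therefore a limit of the measurement for most of them, not a level.

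**Figure D1:**
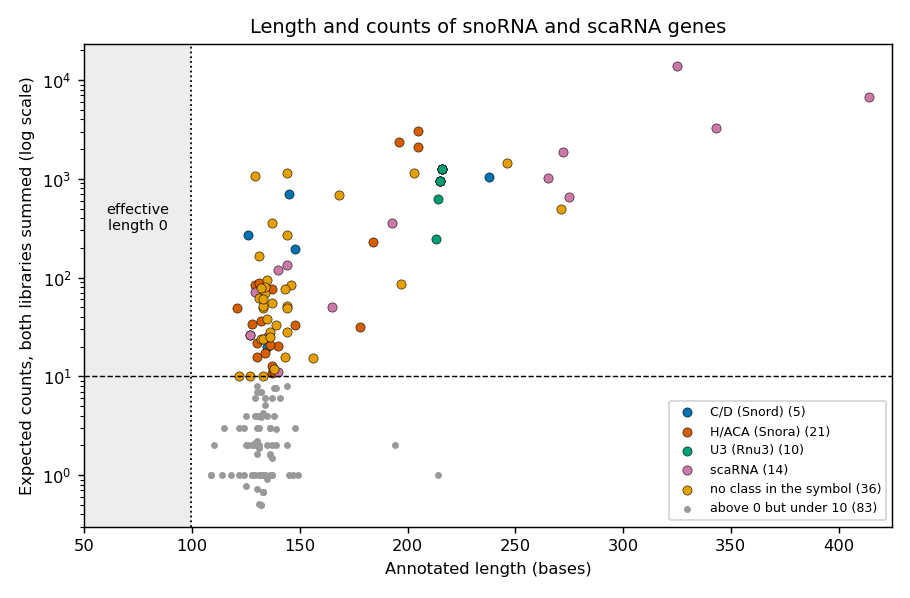
Expected counts summed over both hearts (y axis, log scale) against annotated length in bases (x axis) for the 169 snoRNA and scaRNA genes with counts, coloured by class, with the 83 genes under 10 counts in grey; the 1389 genes at 0 are not drawn. The dashed line marks 10 counts and the shaded area the lengths with effective length 0, which hold no points, and the 3 longest genes with counts, all scaRNAs, hold some of the highest counts.

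Among genes that could be counted, the longer ones were members more often. The share of members was 0.943% of 212 genes of 100 to 124 bases, 6.59% of 819 genes of 125 to 149 bases, 30.8% of 26 genes of 150 to 199 bases, 55.9% of 34 genes of 200 to 299 bases and 3 of 5 genes above that. Across the 86 members, Pearson's r between length and log2 summed count was 0.77 and Spearman's rho 0.66. On the TPM scale, which divides by effective length, the same coefficients were 0.58 and 0.49. These are descriptions across genes that share libraries and, for U3, sequence.

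The members together held 0.0597% (95% Clopper-Pearson interval 0.0589 to 0.0604%) of the expected counts of annotated genes in replicate 1 and 0.0884% (0.0875 to 0.0894%) in replicate 2, or 0.0740% ± 0.0203 (SD, n = 2). In TPM, where short genes weigh more, they held 0.671% in replicate 1 and 0.914% in replicate 2. Intervals cover counting error only. Counts were concentrated in a few genes: the 5 highest members held 57.1% of the member counts in replicate 1 and 48.9% in replicate 2, and the 20 highest held 87.9% and 85.3%. At the low end, Gm23297 (4 and 6 counts in replicates 1 and 2), Gm24233 (1 and 9), Gm25636 (5 and 5), Snora52 (0 and 10.7) and Snora34 (4 and 7) lay just inside the minimum. Just outside it lay Gm24888 (7 and 1), Gm25848 (2 and 6), a second entry of Snora43 (0 and 7.65), Gm26130 (3.29 and 4.31) and Gm23639 (2 and 5).

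The scaRNAs held the largest share of member counts, 54.0% in replicate 1 and 47.3% in replicate 2. Per length the order differed, and the unclassed members led with 30.6% and 29.3% of member TPM in replicates 1 and 2, ahead of scaRNA with 28.7% and 25.5%. U3 held 12.3% of member counts in replicate 1 and 20.4% in replicate 2, H/ACA 16.1% and 13.8%, and C/D 3.95% and 3.93%.

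Scarna10, known in human cells as U85, a guide for both kinds of modification of the U5 snRNA, was the most abundant member on either scale. It held 5528 counts in replicate 1 and 8364 in replicate 2, or 809 and 1155 TPM. Scarna2, a guide for methylation of the U2 snRNA that in human cells is transcribed from a gene of its own, held 3402 and 3275 counts, or 357 and 325 TPM. Scarna2 was one of 8 members with no host gene on the same strand. Gm22009, an unnamed scaRNA gene in an intron of Kpna4, held 1705 and 1593 counts. These 3 genes, the only members over 300 bases, held 46.1% of all member counts in replicate 1 and 39.7% in replicate 2. Scarna2 and Gm22009 had log2 ratios of -0.09 and -0.04 (replicate 1 over replicate 2, scaled counts), whereas Scarna10 was lower in replicate 1 at -0.74 (95% counting interval -0.79 to -0.69).

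Scarna6, which guides modification of U5 in human cells, and Gm25395 lie in introns of the autophagy gene Atg16l1 and shared 62.6% of aligned positions. Gm25395 had 700 counts in replicate 1 and 1176 in replicate 2, and Scarna6 held 403 and 615, so both were lower in replicate 1. Scarna13, in an intron of the noncoding host Snhg10, held 359 and 291 counts and was the higher in replicate 1 by count, although its scaled log2 ratio of 0.16 had a counting interval of -0.07 to 0.39. Its host had 0.74 TPM in replicate 1 and 0.57 TPM in replicate 2, against 67.5 and 51.6 TPM for the scaRNA. Gm26083, over an exon of Snhg20, held 150 and 206 counts. The remaining scaRNAs were low. Gm22442 held 75 and 60 counts in replicates 1 and 2, Gm23119 held 67 and 52, Gm25492 39 and 33, Gm22767 17 and 33, Gm25820 5 and 21, Gm24289 4 and 21, and Scarna3a 4 and 7.

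The H/ACA class was led by Snora73b and Snora73a, copies of U17 that shared 96.6% of aligned positions and whose relatives in frog and yeast are required for 18S rRNA processing rather than for modification. Snora73b had 1445 counts in replicate 1 and 1629 in replicate 2, and Snora73a held 1075 and 1011. Both copies lie in Snhg3, a noncoding host at 10.8 TPM in replicate 1 and 8.92 TPM in replicate 2, far below the 451 and 480 TPM of Snora73b. Snora74a, in the noncoding gene AC121821.1, held 906 and 1425 counts. The other 18 H/ACA members together held 292 counts in replicate 1 and 528 in replicate 2. Snora23, in an intron of the nuclear import gene Ipo7, was the highest of these at 50 and 180 counts. Snora73b, Snora73a and Snora23 each have a gene on the other strand, and whether counting used strand is not stated. Among the lower ones, Snora44 in Snhg12 held 42.9 and 40.3 counts, and Snora21 in Rpl23 held 34 and 43. Snora26 held 19.4 and 30.1 counts, Snora17 12 and 24, and Snora78 21 and 13.

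Among the C/D members, Snord17, in an intron of the sorting nexin gene Snx5, held 334 counts in replicate 1 and 708 in replicate 2. Snord15b and Snord15a, guides for methylation of 28S rRNA, both lie in the ribosomal protein gene Rps3. Snord15b held 392 and 304 counts in replicates 1 and 2, and Snord15a held 85 and 111. Snord15b was the only C/D member higher in replicate 1, with a log2 ratio of scaled counts of 0.22 (95% counting interval 0.01 to 0.45). Every window of 100 bases in Snord15b also occurs in an Rps3 transcript, so its reads also fit its host. Snord22, which in frog is needed for 18S rRNA maturation and lies in Snhg1, held 93.0 and 174 counts. Snord118, the U8 snoRNA needed for maturation of the large-subunit rRNAs in frog, held 6 and 14 counts and had no host gene.

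Of the C/D genes found by symbol for imprinted clusters and for hosts that carry many snoRNAs, all but Snord22 fell below the length limit. For the imprinted clusters only Snord64 and Snord107 were found by symbol, and other genes of these clusters were not assessed. Snord64 and Snord107 of the imprinted clusters, the 4 genes Snord32a, Snord33, Snord34 and Snord35a hosted by Rpl13a, and 4 of the 5 entries hosted by Gas5 and Snhg1 were under 100 bases. Of the 19 entries for rRNA cleavage and folding, 4 (Snord14a, Snord14c, Snord14d and Snord14e) were under 100 bases, and 14 of the other 15 were members. The exception was Snord13, whose 104 bases left an effective length of 5, with 0 counts in either heart, which allows up to 3 counts per library. Of the 14, 10 were the U3 entries, which stand for only 5 loci. Over all 1096 snoRNA and scaRNA genes of at least 100 bases, 7.85% were members.

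**Figure D2:**
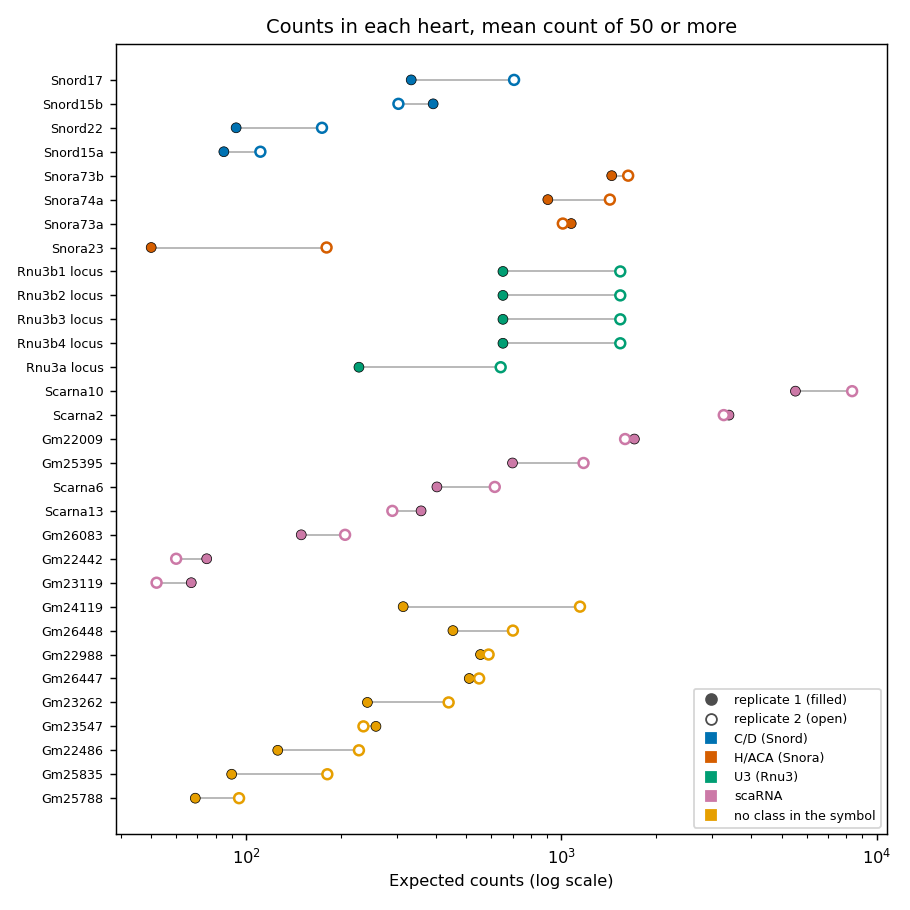
Expected counts (x axis, log scale) in replicate 1 (filled) and replicate 2 (open) for the 31 members or U3 loci whose mean count reached 50, the paired entries of a U3 locus summed, ordered by class and count. Most filled points lie left of the open ones, with the widest gaps at Snora23, Gm24119 and the U3 loci, while Snord15b, Snora73a, Scarna2, Gm22009, Scarna13, Gm22442, Gm23119 and Gm23547 lie right of them before scaling.

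The 36 unclassed members held 3125 counts in replicate 1 and 4880 in replicate 2. The 3 highest by count were Gm24119, in an intron of the mitochondrial phosphate carrier gene Slc25a3, with 315 and 1146 counts, Gm26448, in an intron of Rpsa, with 453 and 702, and Gm22988, over an exon of an Eif4a1 transcript, with 554 and 588. Gm26447, over an exon of an Eif4a2 transcript, held 510 and 549 counts but 563 and 571 TPM, the highest TPM of the unclassed members. Gm23262 in Eif4g2 held 243 and 439 counts. At the 3′ end, 25 of the 36 unclassed members (69.4%) carried ACA in the box position, against 20.8% of the 949 unclassed genes of at least 100 bases that were not members and 2.45% of all 141767 annotated transcripts. C and D boxes were found in 3 of the 36, namely Gm22486, Gm23547 and Gm25835, and in 0.267% of all transcripts. Among classed members ACA was at the end of 16 of 21 H/ACA genes and 0 of 5 C/D genes, while both C and D boxes were found in 3 of 5 C/D genes and 0 of 21 H/ACA genes. Of the 14 scaRNAs, 6 carried the ACA and 4 the C and D boxes. A match is a description of letters in a window, and a missing match says only that these letters are not in it. Gm26165 and Gm22422 shared 90.6% and 80.3% of aligned positions with Snora70, and Gm24233 shared 89.4% with Snora26.

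U3 was annotated as 10 entries at 5 loci, with a shorter and a longer entry at each locus that differ by a single base at the 3′ end. The reads of a locus were therefore divided between entries that are almost the same. At each Rnu3b locus the shorter entry (215 bases) had 174 counts in replicate 1 and 772 in replicate 2, and the longer entry (216 bases) held 478 and 766. The division was identical at the 4 Rnu3b loci, whose sequences are the same. For Rnu3a the shorter entry (213 bases) had 228 counts in replicate 1 and 18.2 in replicate 2, and the longer entry (214 bases) held 0 and 624. The authors' posterior SD of these counts over possible divisions of the reads was 53.2 in replicate 1 and 145 in replicate 2 for Rnu3a, and reached 387 in replicate 1 and 543 in replicate 2 for Rnu3b entries. Single U3 entries are thus uncertain. Sums per locus are given next, while later counts over all members take each entry singly unless stated.

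**Figure D3:**
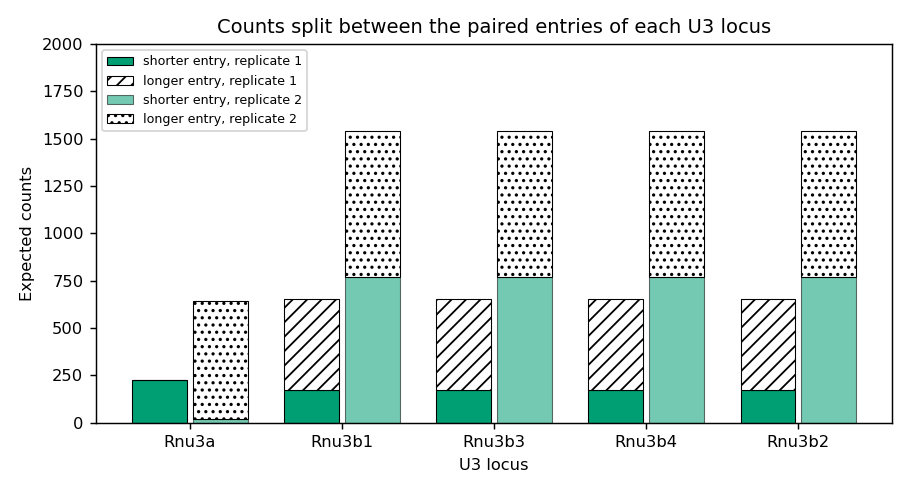
Expected counts (y axis) of the shorter entry (solid) and the longer entry (hatched or dotted) at each of the 5 U3 loci (x axis), with replicate 1 at the left and replicate 2 at the right of each pair. The bar of replicate 1 is the lower at every locus, and at Rnu3a nearly all reads fall to the shorter entry in replicate 1 and to the longer entry in replicate 2.

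Summed per locus, Rnu3a held 228 counts in replicate 1 and 642 in replicate 2. Each Rnu3b locus held 653 and 1538 counts, and the 4 loci together 2611 and 6152, or 740 and 1648 TPM. The Rnu3b sum was 2.60-fold lower in replicate 1 (log2 ratio -1.38, 95% counting interval -1.44 to -1.31), and Rnu3a was 3.10-fold lower (-1.63, -1.86 to -1.41). Both forms of U3 were thus the lower in replicate 1. Since the Rnu3b copies are identical, the 4 loci count as 1 observation. They lie within introns of Tex14, a gene for the bridges between germ cells, which stood at 0.04 TPM in replicate 1 and 0.03 TPM in replicate 2.

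Comparing the hearts, 74 of the 86 members were lower in replicate 1 and 12 were higher, where counts were scaled by edgeR's TMM factors. Over all annotated genes with at least 10 counts, 51.7% were lower in replicate 1. The median log2 ratio of replicate 1 over replicate 2 was -0.77 over the members and -0.01 over those 18405 genes. Scaling by total counts raised the median of all genes by 0.11, to 0.10, and by the same amount that of the members, of which 69 were then lower in replicate 1. The members' median lay 0.76 below that of all genes, a gap that a change of scaling cannot alter. With Rnu3a and Rnu3b each taken once, 67 of 78 were lower in replicate 1. For 45 members the counting interval of the ratio lay wholly below 0, against 18.2% of all genes, and for 2 members it lay wholly above 0, against 16.6%. Single U3 entries made up 9 of the 45 and 1 of the 2. With 1 library per animal there is no test across animals, and the intervals say only how far counting error reaches. In whole tissue, fewer cells of a type and less RNA per cell cannot be told apart.

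A more than 2-fold difference was called at a mean count of at least 50, which 36 entries reached, and with the interval clear of 0. It was met by 10 entries lower in replicate 1, where 0.802% of the 13211 genes tested were called. It was also met by 1 entry higher in replicate 1, where 0.984% were called. The 1 higher entry was the shorter Rnu3a, whose partner at the same locus went the other way. With Rnu3a and Rnu3b each summed to 1 member, which was chosen after the values were seen, 7 of 28 were lower and 0 were higher. The 7 were Rnu3a, Rnu3b, Gm24119, Snora23, Snord17, Gm25835 and Snord22. Among the 16 members at this mean count that shared no 100-base window with another transcript, 4 were lower and 0 higher. At this mean count, Gm24119 had the lowest log2 ratio outside U3, with a 4.01-fold lower count in replicate 1 (interval on the log2 scale -2.19 to -1.82), followed by Snora23 at -1.98 (-2.47 to -1.53) and Snord17 at -1.22 (-1.42 to -1.04). Gm25835, in an intron of Eif4a1, held 90 and 181 counts, a log2 ratio of -1.15 (-1.53 to -0.78). Snord22, all of whose 27 windows of 100 bases also occur in Snhg1 transcripts, had -1.04 (-1.42 to -0.67). At the other end, at the same mean count, Snord15b, Gm23119 (0.22, -0.32 to 0.78) and Gm22442 (0.18, -0.33 to 0.70) had the highest ratios apart from the Rnu3a entry. With the identical Rnu3b copies counted once, 24 of 28 members whose mean count reached 50 were lower in replicate 1.

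**Figure D4:**
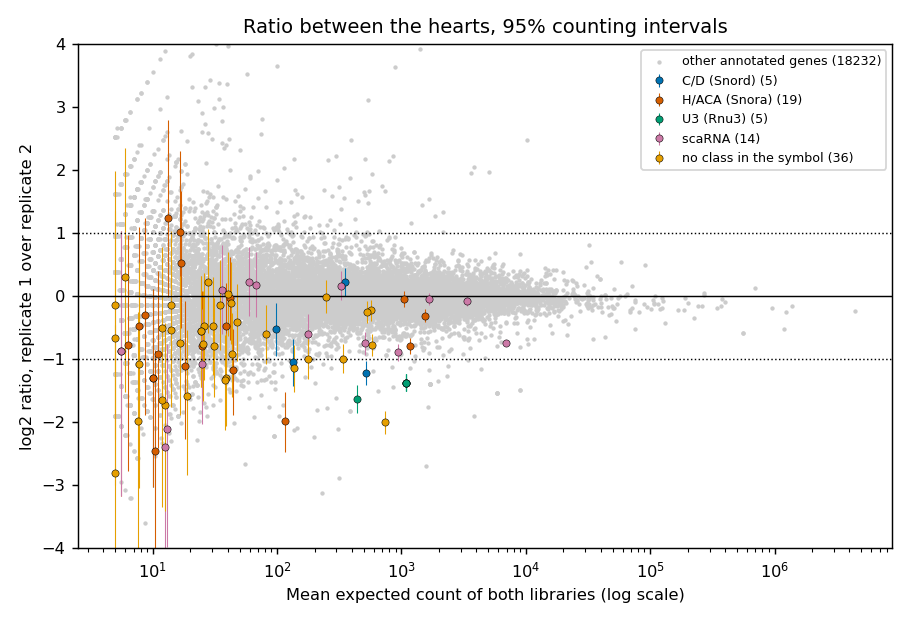
Log2 ratio of replicate 1 over replicate 2 (y axis) against mean expected count (x axis, log scale) for 79 members or U3 loci, coloured by class with 95% counting intervals, and for 18232 other annotated genes in grey; 2 members (Snora81 and Snora52) and 87 other genes lie outside the range of 4 either way. The coloured points sit mostly below the line at 0 on which the grey cloud is centred. Below the dotted line of a 2-fold difference lie U3, Gm24119, Snora23, Snord17, Gm25835, Snord22 and several members with low counts.

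The classes differed in how far they lay from 0. Summed over a class, the log2 ratio was -1.40 for U3, -0.78 for the unclassed members, -0.67 for C/D, -0.48 for scaRNA and -0.45 for H/ACA. Outside U3, the medians over members ordered the classes otherwise, at -1.04 for C/D, -0.79 for H/ACA, -0.67 for scaRNA and -0.64 for the unclassed members, since a sum is weighted to the few members with the highest counts. The median of the U3 entries, -1.55, lies between Rnu3b entries at -0.82 and -2.29 that divide the same reads, so it depends on that division. The counting intervals of scaRNA (-0.51 to -0.45) and H/ACA (-0.51 to -0.38) overlapped, and that of U3 (-1.46 to -1.34) overlapped no other class. Each of these sums rests on 2 libraries. Outside U3, members of at least 150 bases had a median log2 ratio of -0.78 (n = 20) and shorter members -0.57 (n = 56). The 337 other annotated genes of 100 to 414 bases with at least 10 counts had a median of -0.11, and 57.6% of them were lower in replicate 1. Their lower quartile was -0.71, and the counting interval lay wholly below 0 in 82 and wholly above 0 in 46. By the 2-fold rule above, which also asks for a mean count of at least 50, 32 of these other genes were lower in replicate 1 and 1 was higher. How many of the 337 reached that mean count is not given here, so 32 of 337 is not a share of genes tested. Whether the members differ from them was not tested. Other short structural RNAs also lay below 0: Rpph1, the RNA of ribonuclease P, at -0.65, the signal recognition particle RNA gene Rn7s1 at -0.58, Rmrp, the RNA of ribonuclease MRP, at -0.28 and Rn7sk at -0.11. The atrial and fat markers given above were higher in replicate 1, opposite to most members, and their part in the ratios was not tested.

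Sequence shared with other transcripts bears on the counts. In 46 members no window of 100 bases occurred in another annotated transcript, and 45 of these had whole counts in both hearts (within 0.005). In 30 members every window was shared, 9 of them U3 entries, and 29 of the 30 had counts that were not whole. The 46 members with no shared window had a median log2 ratio of -0.71, and 38 of them were lower in replicate 1. The most uneven members were of the shared kind. Snora81, over an exon of an Eif4a2 transcript, held 0.17 counts in replicate 1 and 31.6 in replicate 2, with posterior SDs of 2.17 and 3.63, and Snora52, over an exon of an Rplp2 transcript, held 0 and 10.7, with posterior SDs of 2.77 and 5.09.

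A host gene on the same strand was annotated for 78 members, with 58 different hosts, and 66 of the 78 lay in protein-coding hosts. Of the 78, 49 lay wholly within introns and 29 overlapped an exon of some transcript of the host, often a retained intron. Hosts included ribosomal protein genes for 11 members, Snhg genes for 9 and translation initiation factor genes of the Eif4 family for 7. Across the 70 of these outside U3, Pearson's r between the log2 TPM of host and member was -0.07 and Spearman's rho -0.12, and 29 had more TPM than their host in both hearts. Members of 1 host also differed. In Eif4a1, Gm22988 stood at 407 and 408 TPM in replicates 1 and 2, Gm25835 at 66.2 and 126, and Gm24029 at 3.87 and 7.42. In Ipo7, Snora23 stood at 19.5 and 66.1 TPM, and Gm25636 at 4.86 and 4.59. The tables hold spliced transcripts, so reads of unspliced host RNA that cross an intronic member cannot be told apart from the member.

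The ratios of the hosts themselves lay near 0. Outside U3, 24 members whose mean count reached 50 had a host, in 20 hosts, and their median log2 ratio was -0.67, against -0.03 for the hosts. The member lay below its host in 21 of the 24, and in 14 the counting interval of the member lay wholly below that of the host. In 1, Snord15b in Rps3, it lay wholly above, but all 46 windows of 100 bases in Snord15b also occur in Rps3 transcripts. Slc25a3, the host of Gm24119, had a ratio of -0.06, Ipo7, the host of Snora23, -0.02, and Snx5, the host of Snord17, -0.04. Across the 24, Pearson's r between the ratios of host and member was 0.13 and Spearman's rho 0.10, given as a description of genes that share both libraries.

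**Figure D5:**
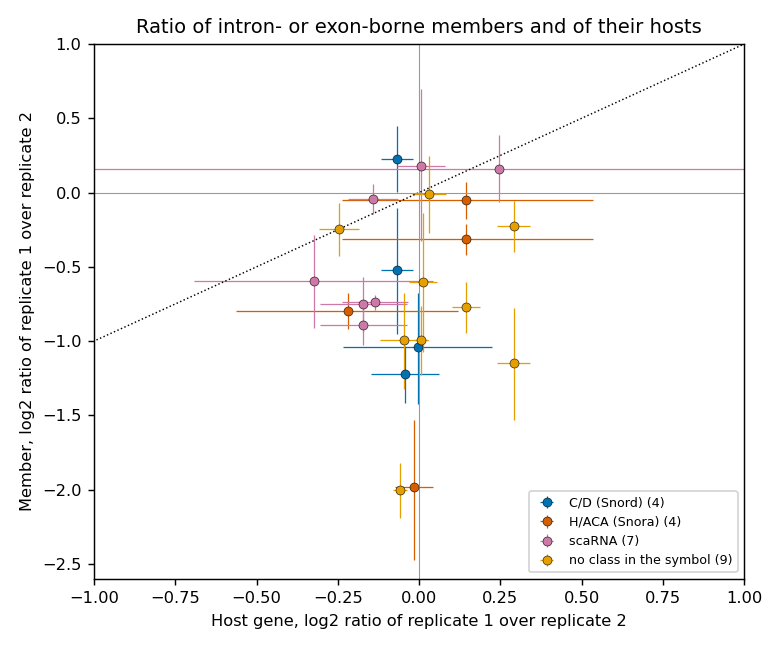
Log2 ratio of replicate 1 over replicate 2 of 24 members (y axis) against that of their host genes (x axis), with 95% counting intervals, coloured by class; the dotted line marks equal ratios, and the interval of Snhg10, the host of Scarna13, runs past the axis. The hosts lie between -0.32 and 0.29, and 21 members lie below the dotted line.

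Genes listed for the proteins that bind these RNAs or for their assembly were expressed at low to moderate level. The list of 27 genes, set beside the members for scale, had a median of 8.86 TPM, from 1.71 for the assembly factor Shq1 to 59.4 for Nop53. Nop53 is among the 12 genes listed under assembly, a place that does not mean that a protein binds these RNAs. Fbl, the methyltransferase fibrillarin of C/D snoRNAs, stood at 20.9 TPM in replicate 1 and 15.9 TPM in replicate 2, and Dkc1, the pseudouridine synthase dyskerin of H/ACA snoRNAs, at 10.8 and 11.8 TPM. Coil, the marker protein of Cajal bodies, stood at 2.51 and 2.58 TPM, and Wrap53, which brings scaRNAs to them, at 2.47 and 1.91 TPM. The median log2 ratio of the list was 0.05, against -0.01 over the 18405 annotated genes with at least 10 counts. Of the 27, 20 were higher in replicate 1, as were 8891 of those 18405 genes, and none differed by more than 2-fold. With scaling by total counts, which moved the median of all genes to 0.10, 25 of the 27 were higher. The counting interval lay above 0 for 4 of the 27, against 16.6% of all genes, among them Nolc1, a chaperone of snoRNPs, at 0.56. It lay below 0 for none, against 18.2% of all genes. Rrp9, a U3-specific protein, had a ratio of 0.20, and Mphosph10 and Imp4 of the U3 particle had 0.20 and 0.13. The other 2 genes listed for U3, Imp3 and Utp3, had -0.07 and -0.10, and the counting intervals of all 5 included 0. The RNA of telomerase, Terc, which also ends in an H/ACA domain but is typed otherwise, held 11 and 13 counts.

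The authors' other quantification, made from the reads directly, listed 83 of the 86 members at 0 in both hearts. It gave counts to Scarna2 (1222 in replicate 1 and 1294 in replicate 2), Gm22009 (152 and 195) and Scarna10 (1 and 2), the 3 members of 325 bases or more, while the longest member listed at 0 had 275 bases. For Scarna10 that is 0.0181% of the expected counts of the first quantification in replicate 1 and 0.0239% in replicate 2. In that table effective length fell short of length by a median of 338 bases in replicate 1 and 337 bases in replicate 2 for transcripts of at least 1000 bases. No member listed at 0 reached that length, and the levels given above rest on the first quantification alone.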

How the data were processed

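Total RNA-seq of 2 hearts was analysed from tables the authors deposited, on mm10 with GENCODE release 21 for mouse, per the file headers. Expected counts, TPM and FPKM came from the authors' gene tables, made from alignments to the transcriptome, per the deposited notes. The estimated counts and TPM of the other table came directly from reads, per the deposited notes. The names of the programs are not given in the sources used here, although the columns are laid out as RSEM and kallisto write them. Whether counting used strand is not stated, so the 6 members with a gene on the other strand are uncertain. Snora73b, Snora73a, Snora23, Snora78 and Gm25636 are among them.

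Classes were taken from symbols and annotated types. Expected counts were rounded, scaled by edgeR 4.0.16 TMM factors in R 4.3.3, and 0.5 was added before taking the log2 ratio of replicate 1 over replicate 2; exact 95% Clopper-Pearson intervals cover counting error only. Alternatives were DESeq2 1.42.0 size factors, total and ERCC scaling, other minimums, TPM, FPKM and the other quantification. The calculation of the ratio and its interval was tested on simulated counts. Rows that name no gene held 1.0e-05% and 7.9e-06% of counts in replicates 1 and 2. Shared windows and boxes were found with Python 3.11.15 and identities by global alignment with Biopython 1.88. No test across animals was possible.

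The members and lists were chosen with earlier results of these data known. Genes named are all U3 and scaRNA members, all 5 C/D members, the 10 H/ACA and 5 unclassed members with the highest mean count, members over 2-fold, the 3 at each end of the ratio, 5 on each side of the minimum, and members of the lists. Snora81, Gm24029, Gm25636, Gm22486 and the unclassed genes named for boxes or identity were chosen after their values were seen, as were the sequences printed beyond U3, Snord17, Snord15b, Snora73b, Gm24119 and Gm26448. Sequences of Snora73a, of the longest scaRNAs and of members on chromosome 18 are not printed. One gene that this rule names is not reported here.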

Additional observations from a re-analysis of the deposited data

How the results depend on the processing

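The number of members was 86 with a minimum of 10 counts and 53 with a minimum of 50; in the other quantification it was 2. Members held 0.0740% of expected counts, 0.00379% in the other quantification and 0.792% by either TPM or FPKM. By TPM, the mean class shares were 7.64% for C/D (3.94% by count), 19.2% for H/ACA (15.0%), 27.1% for scaRNA (50.7%) and 29.9% for unclassed members (14.1%); in the other quantification they were 0% for C/D, H/ACA, U3 and unclassed members and 100% for scaRNA. The median log2 ratio of -0.77 became -0.66 with total counts, -0.70 with ERCC scaling, -0.33 in the other quantification, where it rests on 2 genes, and -0.71 over members with no shared window. The count of 10 of 36 entries over 2-fold lower in replicate 1 became 25 with no minimum on the mean count and 0 in the other quantification. Among members with no shared window it was 4 of 16. The count of 1 higher in replicate 1 became 0 in the other quantification, 0 with U3 summed per locus or per form and 0 among members with no shared window; with U3 summed per form, 7 were lower. The settings on U3 and on shared windows were chosen after seeing the data. Other settings kept these values within 1.5 times or within the spread, and no direction was reversed. Leaving out either replicate leaves the value of the other, so with 2 libraries it is no check. For the 45 members followed singly, the other quantification moved the level of 43, and rank changed by TPM for 42. The other 2 by level were the Rnu3a entries, which were also at 0 there. They stayed within the spread only because their counts differed so widely between the libraries. No paired analysis was possible because there is 1 group.

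With 2 libraries of a single group, a ratio here is a difference between 2 hearts. Counts under about 10 per library carry wide intervals, U3 entries of 1 locus cannot be told apart, and C/D snoRNAs under 100 bases are outside the range of the tables.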
